A study of Mus musculus with 6 samples.

Results

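Gene deserts are long stretches of chromosome that hold no protein-coding gene, and the methylated regions inside them are described here for mouse lung. A desert region was a peak, or a merged region of overlapping peaks, on chromosomes 1 to 19 that lay 250000 bp or more from the span of any protein-coding gene of build mm10. The position alone chose the members, and no measured value entered the choice. Of 158077 autosomal regions obtained by merging the 6 deposited peak lists, 12317 lay in deserts, and 64 of the 407 rows of the authors' deposited table of differential regions did so.

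Methylated DNA fragments from whole lung were enriched with a methyl-binding-domain kit before sequencing (MBD-seq), and peaks mark the stretches where such fragments piled up. The libraries came from 3 transgenic mice, labelled SPC-DNMTdelta3B/DG (replicate 2 is spelled SPC-DNMTdeltaB/DG), and 3 wild-type mice, all aged 12 to 16 months. The transgene is a deletion variant of the de novo methyltransferase DNMT3B under the promoter of the surfactant protein C gene, which is active in alveolar type 2 cells, so whole lung also holds many cells that do not use that promoter. The labels name several founder lines and give neither the founder line nor the sex of the sequenced animals. The lists held 120349, 116352 and 78952 peaks in transgenic replicates 1, 2 and 3 and 60131, 111211 and 30640 in wild-type replicates 1, 2 and 3. Read depth was unknown, and list length is at best a rough guide to it. Wild-type replicate 3 stands apart by its short list of narrow peaks. A methylation assay holds no expression values, so the tissue label could not be checked against marker transcripts.

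Mammalian DNA is methylated mostly at cytosines followed by guanine (CpG), and most CpGs outside active promoters and enhancers are methylated in adult tissue. Deserts are poor in CpG and often late replicating, and many flank genes of development and of the nervous system, whose distant enhancers they can hold. Because capture needs several methylated CpGs on a fragment, MBD-seq reports the places where CpGs lie close together, and a lack of a peak does not show a lack of methylation.

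Deserts between 2 protein-coding genes numbered 585 and covered 392 Mb, which was 16.4% of the autosomal sequence between the outermost genes. Their median length was 0.371 Mb and the longest, between the protocadherin genes Pcdh20 and Pcdh9 on chromosome 14, reached 4.04 Mb after 250 kb had been set aside next to each gene. The 122 deserts of 1 Mb or more made up 59.8% of the desert sequence. Stretches at the chromosome ends held a further 91 of the 12317 desert regions and were left out wherever a density is given. The label holds for protein-coding genes only, since 2729 non-coding genes and gene segments of the RefSeq table overlapped these deserts. Just inside the limit, at 250 to 260 kb from a gene, 497 regions had a median width of 456 bp and 15.7% had a peak in all 6 lists. Just outside it, at 240 to 250 kb, 517 regions had a median width of 482 bp and 13.9% had a peak in all 6 lists.

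The desert sequences that can be shown are gene promoters, of which 775 windows of 300 bases from 676 long non-coding RNA (lncRNA) genes lay in deserts. A region with peaks in 4 to 6 lists covered or touched 29 of these windows, and their median CpG number was 12. The 720 windows without a peak in any list had a median of 2 CpGs. For autosomal promoter windows outside deserts the median was 8 CpGs. The windows with peaks in all 6 lists had 15, 13, 6, 3, 3, 2 and 2 CpGs, so a window captured in every list need not be CpG-rich. Of the 63 desert windows with 8 or more CpGs, 22 had peaks in 4 to 6 lists. The windows below are the most CpG-rich of those with a peak in 6 lists (Gm41479 and Gm31114), in 5 lists (Gm42298) and in none (2410018L13Rik). They are shown because they carry the contrast between a captured and an uncaptured CpG cluster. They are RefSeq promoters of build GRCm38.p6, read 5′ to 3′ on the gene's strand, with each CpG in capitals.
Gm41479, chr16:80294655-80294954, plus strand, 15 CpGs, peaks in 6 lists: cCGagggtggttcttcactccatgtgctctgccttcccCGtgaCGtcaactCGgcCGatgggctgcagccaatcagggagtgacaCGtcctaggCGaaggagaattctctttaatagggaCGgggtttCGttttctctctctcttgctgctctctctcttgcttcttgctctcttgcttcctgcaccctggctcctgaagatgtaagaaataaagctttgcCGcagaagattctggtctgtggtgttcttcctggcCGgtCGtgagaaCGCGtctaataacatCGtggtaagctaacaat
Gm31114, chr9:90933896-90934195, minus strand, 13 CpGs, peaks in 6 lists: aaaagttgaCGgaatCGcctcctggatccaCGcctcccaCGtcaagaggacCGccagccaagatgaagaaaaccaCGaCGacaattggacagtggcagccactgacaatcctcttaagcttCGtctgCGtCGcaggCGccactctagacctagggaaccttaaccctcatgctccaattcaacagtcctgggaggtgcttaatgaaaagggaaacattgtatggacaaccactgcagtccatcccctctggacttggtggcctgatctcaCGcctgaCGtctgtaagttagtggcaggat
Gm42298, chr4:71381719-71382018, plus strand, 19 CpGs, peaks in 5 lists: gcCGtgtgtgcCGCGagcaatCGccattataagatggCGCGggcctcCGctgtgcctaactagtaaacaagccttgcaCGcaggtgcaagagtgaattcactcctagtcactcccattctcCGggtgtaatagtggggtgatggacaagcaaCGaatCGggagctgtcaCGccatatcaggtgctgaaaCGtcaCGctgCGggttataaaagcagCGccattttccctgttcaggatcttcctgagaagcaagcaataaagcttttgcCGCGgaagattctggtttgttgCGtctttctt
2410018L13Rik, chr12:23010194-23010493, minus strand, 31 CpGs, no peak: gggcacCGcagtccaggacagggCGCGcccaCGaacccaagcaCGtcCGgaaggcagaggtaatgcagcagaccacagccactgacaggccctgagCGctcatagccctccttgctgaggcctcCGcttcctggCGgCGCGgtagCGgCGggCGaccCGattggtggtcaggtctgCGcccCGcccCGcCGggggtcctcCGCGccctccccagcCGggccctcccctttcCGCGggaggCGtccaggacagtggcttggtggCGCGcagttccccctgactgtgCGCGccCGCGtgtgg

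The region over the Gm41479 window (chr16:80294162-80295085) had peak scores of 369, 256 and 119 in transgenic replicates 1, 2 and 3 and 109, 277 and 144 in wild-type replicates 1, 2 and 3. The score comes from the authors' peak caller, has a floor of 50 in each list and is unscaled between libraries, so it serves to rank peaks within 1 list. The groups overlapped at this window. At Gm31114 the scores were 184, 114 and 142 in transgenic and 54.5, 111 and 89.0 in wild-type lungs, so that the lowest transgenic score lay just above the highest wild-type score. At Gm42298 the scores were 603, 448 and 280 in transgenic lungs and 121 and 428 in wild-type replicates 1 and 2. There was no peak in wild-type replicate 3, and the groups overlapped. Such orders of unscaled scores do not measure a group difference in capture. The window of 2410018L13Rik held the most CpGs of all desert promoters and had a GC content of 72.7%, against 52.0%, 53.0% and 52.0% for the other 3. It was 1 of 4 windows with 18 or more CpGs and no peak. The others were Gm13652, 2600014E21Rik and Gm36794, and 3 of the 7 windows with 18 or more CpGs had a peak.

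The captured windows also shared short strings of letters. Of all strings of 11 letters, read on either strand, 3 occurred in the windows of 5 genes among the 28 genes with peaks in 4 to 6 lists, and no string occurred in more. The string AATAAAGCTTT stands toward the 3′ end of the Gm41479 and Gm42298 windows above and was found in 6 of the 29 windows (20.7%, genes Gm34585, Gm35195, Gm41479, Gm42298 and Gm46244). It was found in 0 of 26 windows with peaks in 1 to 3 lists, in 1 of 720 windows without a peak (0.139%) and in 30 of all 31396 autosomal promoter windows (0.0956%). The strings CCTGAAGATGT and GTTCTTCCTGG, both in the Gm41479 window and not overlapping the other, were found in 5 of the 29 windows each (17.2%), and in 27 (0.0860%) and 40 (0.127%) of all autosomal windows. The strings were picked from the same windows as those most shared, so their shares are a description with no test, and no repeat annotation was used here. Of 41 miRNA hairpins in deserts, 1 lay in a region with a peak, that of Mir99a, which had a peak in 2 lists.

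Desert peaks were fewer per Mb than peaks elsewhere on the autosomes, but wider and higher in score. In transgenic replicates 1, 2 and 3 the deserts held 24.6, 25.4 and 19.4 peaks per Mb, against 52.2, 50.05 and 33.3 per Mb in the other autosomal sequence. In wild-type replicates 1, 2 and 3 they held 15.6, 23.6 and 10.3 peaks per Mb, against 25.2, 48.0 and 12.1 elsewhere. The density was lower in deserts in 6 of 6 libraries, with ratios of 0.471, 0.507 and 0.582 in transgenic and 0.619, 0.491 and 0.857 in wild-type lungs. The geometric mean ratio was 0.575 (two-sided exact sign-flip permutation test over 6 libraries, p = 0.03125, adjusted p = 0.03125 over 3 tests of deserts against the rest), which is the smallest p that 6 libraries allow. The ratio moved with the choice of peaks. When each list was cut to its 30640 highest-scoring peaks it was 0.888 (exact sign-flip p = 0.03125). Among peaks that reached the pooled median score of 96.3 the ratio was 0.791 and no longer passed the test (exact sign-flip p = 0.125). Scores are unscaled between libraries, so this single cut kept unlike shares of the 6 lists. Peak strength and library scale cannot be told apart there.

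The decline was gradual with distance from genes. In transgenic replicate 1 the density was 61.7 peaks per Mb inside genes, 47.2 within 50 kb of a gene, 42.1 at 50 to 100 kb, 34.8 at 100 to 250 kb, 27.4 at 250 to 500 kb and 22.001 at 500 kb or more. In wild-type replicate 2, the wild-type library with the longest list, the same series was 55.4, 44.5, 40.1, 32.9, 26.1 and 21.2 peaks per Mb. In wild-type replicate 3 it was 12.7, 11.6, 11.6, 11.1, 10.3 and 10.3 peaks per Mb, the flattest series of the 6. Relative to the mean of its own library, the density at 500 kb or more was 0.460, 0.497 and 0.591 in transgenic and 0.626, 0.480 and 0.873 in wild-type lungs. The score rank ran the other way in every library. In transgenic replicate 1 the median score percentile was 46.6 inside genes and 74.0 at 500 kb or more, and in wild-type replicate 1 it was 44.7 and 67.6.

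**Figure D1:**
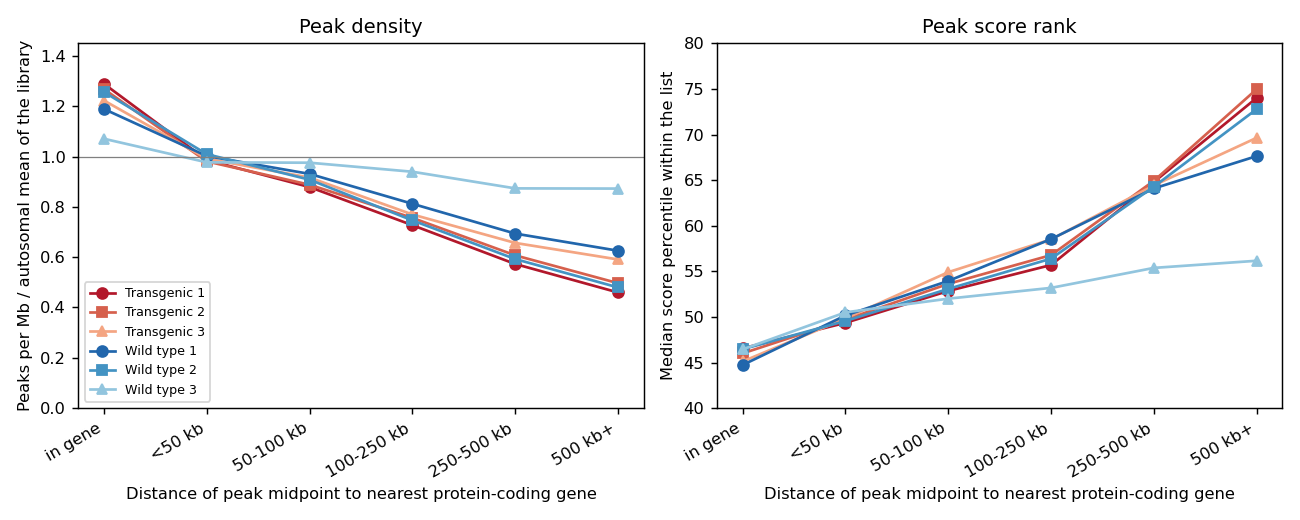
Peak density relative to the autosomal mean of the library (left) and median score percentile within the list (right), by distance of the peak midpoint to the nearest protein-coding gene, with 1 line for each of 3 transgenic (red) and 3 wild-type (blue) libraries. Density falls and score rank climbs with distance in all 6 libraries, least in wild-type replicate 3, where the density at 500 kb or more is 0.873 of its mean.

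Desert peaks ranked high in their own lists. Their median score percentile was 69.4, 69.9 and 67.1 in transgenic replicates 1, 2 and 3, against 48.5, 48.3 and 48.0 for the other autosomal peaks of the same lists. In wild-type replicates 1, 2 and 3 it was 65.6, 68.6 and 55.6 in deserts, against 48.2, 48.5 and 49.0 elsewhere. The mean difference was 17.6 percentile points, positive in 6 of 6 libraries (exact sign-flip permutation test, p = 0.03125, adjusted p = 0.03125). In the lowest of 10 equal score classes (deciles), the desert share of peaks was 4.91%, 5.40% and 5.98% in transgenic replicates 1, 2 and 3 and 5.14%, 5.29% and 11.1% in wild-type replicates 1, 2 and 3. In the highest decile, they held 17.5%, 20.0% and 20.1% in transgenic and 20.6%, 18.1% and 17.96% in wild-type lungs. The share in the highest decile was thus above the 16.4% of sequence that lies in deserts, in every library.

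**Figure D2:**
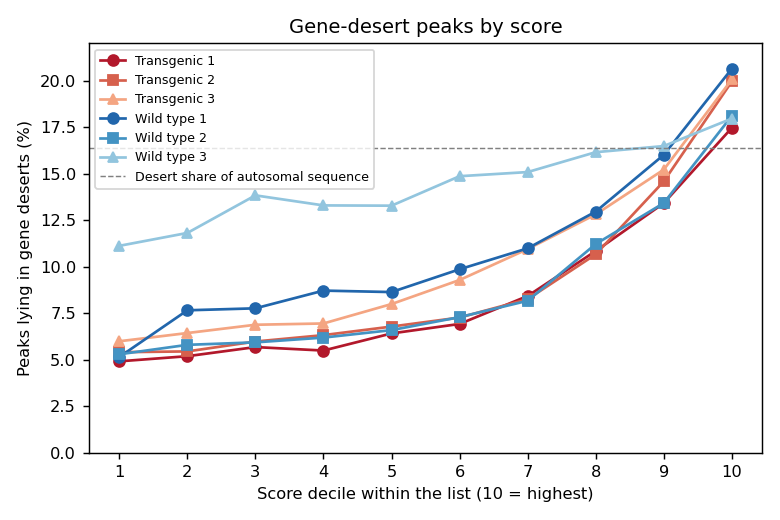
Percentage of autosomal peaks that lie in gene deserts, by score decile within each list (10 is the highest), for 3 transgenic (red) and 3 wild-type (blue) libraries. The dashed line is the desert share of autosomal sequence (16.4%), which all 6 libraries pass in decile 10, where they lie between 17.5% and 20.6%.

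Desert peaks were also wider. The median width was 516, 460 and 441 bp in deserts and 452, 392 and 377 bp elsewhere in transgenic replicates 1, 2 and 3. It was 421, 471 and 201 bp in deserts and 369, 417 and 195 bp elsewhere in wild-type replicates 1, 2 and 3. The mean difference was 51.3 bp, positive in 6 of 6 libraries (exact sign-flip permutation test, p = 0.03125, adjusted p = 0.03125). Among peaks that reached the pooled median score the difference was 43.2 bp and did not pass (exact sign-flip p = 0.0625), with the same limit of a single cut on unscaled scores. After merging, desert regions had a median width of 517 bp and other autosomal regions 453 bp.

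Desert regions recurred across animals more often than other autosomal regions. A peak in all 6 lists was found at 2732 of 12317 desert regions (22.2%, 95% exact binomial interval 21.4% to 22.9%) and at 14010 of 145760 other regions (9.61%, 9.46% to 9.76%). A peak in only 1 list was found at 20.6% of desert regions and 29.2% of other regions. Intervals cover counting error only, and regions of the same libraries are not independent replicates, so no test was made of this difference. Wider regions recurred more in both sets, and the desert share was higher within each width class. For regions of 600 to 999 bp, 43.7% of desert regions and 26.6% of other regions had a peak in all 6 lists. For regions of 1000 to 1499 bp the shares were 69.8% and 48.0%. Wild-type replicate 3 limits these shares, and without it 39.6% of desert regions had a peak in each of the remaining 5 lists.

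**Figure D3:**
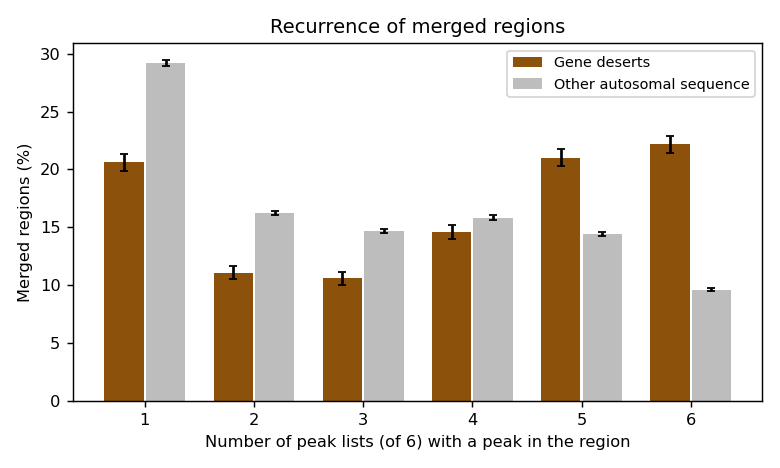
Percentage of merged regions by the number of lists with a peak, for gene deserts (brown, 12317 regions) and other autosomal sequence (grey, 145760 regions), with 95% exact binomial intervals as error bars. Desert regions are most often found in 6 lists (22.2%) and other regions most often in 1 list (29.2%).

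Of the 6 desert regions with peaks in all 6 lists and the highest lowest score, 3 lay close together on chromosome 2. At chr2:98665995-98667462 the score was 3100 in all 6 lists, a value at which each list has 5 to 11 peaks and which 1 peak of transgenic replicate 1 exceeds. At chr2:98662130-98663089 it was 2666, 2815 and 2585 in transgenic replicates 1, 2 and 3 and 2493, 2404 and 2942 in wild-type replicates 1, 2 and 3. A further member of the 6, chr2:98663541-98664391, had scores of 440, 932 and 621 in transgenic and 499, 714 and 749 in wild-type lungs. All 3 lie more than 1 Mb from Lrrc4c, the gene of a synaptic adhesion protein. The other members were chr3:56575333-56575846 between Nbea and Tm4sf1, chr18:55939339-55939899 in the lncRNA gene Gm52332, and chr4:64497619-64498152 between Tnc, the gene of the matrix protein tenascin C, and Pappa, the gene of a secreted metalloprotease. At chr4:64497619-64498152 the scores were 1122, 1289 and 1185 in transgenic and 1148, 864 and 1450 in wild-type lungs. The choice by the lowest score means that every library had to score high at these 6 regions. No filter for regions of artefactual read pile-up was applied here. Whether pile-up unrelated to methylation takes part in these scores was not tested.

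The 6 widest desert regions found in all lists were 2616 to 4817 bp wide and were chosen by width alone. The widest, chr7:72650149-72654965, lies between Mctp2 and Rgma, the gene of a repulsive guidance molecule, and is also a row of the authors' deposited table. Its scores were 815, 602 and 261 in transgenic replicates 1, 2 and 3 and 101, 451 and 57.5 in wild-type replicates 1, 2 and 3. The others were chr3:140770949-140774134, chr2:56798443-56801414 between the potassium channel gene Kcnj3 and Nr4a2, the gene of an orphan nuclear receptor, chr9:80955751-80958632 between Impg1 and the serotonin receptor gene Htr1b, chr3:22729670-22732346 and chr17:41716813-41719428. At these 5, scores were 1068 to 1310 in transgenic replicate 1 and 74.0 to 124 in wild-type replicate 3, so the libraries differed severalfold.

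Regions found in all lists lay in 457 of the 585 deserts, at 6.93 per Mb of desert over all. In the 122 deserts of 1 Mb or more their number ran between 0.751 and 12.4 per Mb, with a median of 6.60. The desert with most of them lay between Cntnap5b, the gene of a neurexin-like protein, and the cadherin gene Cdh20 on chromosome 1. It had 39 shared regions in 3.78 Mb, with 108, 118 and 87 peaks in transgenic replicates 1, 2 and 3 and 81, 97 and 53 in wild-type replicates 1, 2 and 3. Next came the desert between the protocadherin gene Pcdh7 and G6pd2 on chromosome 5, with 37 shared regions in 3.18 Mb. The desert between the zinc transporter gene Slc39a10 and Tmeff2 on chromosome 1 had 34 in 3.47 Mb. The other 7 of the leading 10 held 27 to 29 shared regions each. Of these, 3 with 29 lay between Brinp3 and the phospholipase gene Pla2g4a, between Snx16 and Ralyl, and between the neuronal adhesion gene Slitrk5 and the glypican gene Gpc5. The desert between Lrrc4c and Iftap had 28, and those between Cox7c and the matrix protein gene Edil3, between the N-cadherin gene Cdh2 and the desmocollin gene Dsc3, and between D3Ertd751e and the protocadherin gene Pcdh10 had 27 each. These 10 held 11.3% of the shared regions in 7.58% of the desert sequence.

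The number of shared regions did not follow length alone. The longest desert, between Pcdh20 and Pcdh9, had 22 shared regions in 4.04 Mb, that between Celf4 and Pik3c3 on chromosome 18 had 23 in 4.01 Mb and that between Olfm4 and Pcdh17 had 19 in 3.92 Mb. The desert between the teneurin gene Tenm3 and Aga had 25 in 3.49 Mb. Among deserts of 1 Mb or more, the fewest regions of any kind per Mb were found between Khdrbs3 and Fam135b on chromosome 15 (12.5 per Mb), between Tenm2 and Mat2b on chromosome 11 (13.6 per Mb), and between the oncogene Myc and Gsdmc on chromosome 15 (15.6 per Mb). These were followed by the deserts between Bcl11a, the gene of a zinc-finger repressor, and Fancl (16.3 per Mb) and between Frg1 and Triml1 (16.5 per Mb). The overall number was 31.2 regions per Mb of desert.

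**Figure D4:**
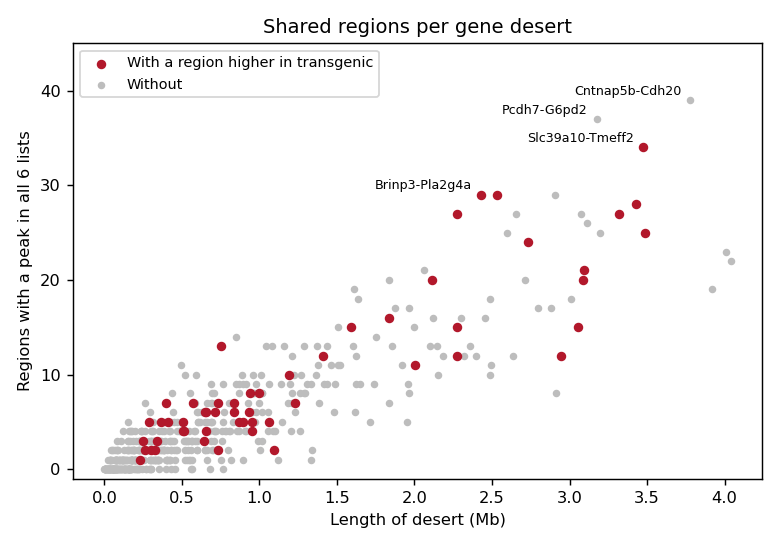
Number of regions with a peak in all 6 lists against desert length in Mb, for 585 gene deserts between 2 protein-coding genes. The 54 deserts with a region higher in transgenic lungs in the authors' deposited table are red, and the desert between Cntnap5b and Cdh20 has the most shared regions (39).

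Flanking genes were described with 3 lists written from general knowledge. Neuronal adhesion and synaptic genes flanked 93 of the 585 deserts, which held 32.8% of the desert sequence, with 6.97 shared regions per Mb. Developmental transcription factor genes flanked 63 deserts with 8.53% of the sequence, at 5.86 shared regions per Mb. Genes of secreted developmental ligands flanked 16 deserts with 1.54% of the sequence, at 6.80 shared regions per Mb. All 3 values lie near the 6.93 per Mb of all deserts.

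Annotated pseudogenes inside deserts carried more peaks than the sequence around them. They cover 3.44 Mb, which is 0.876% of the desert sequence, and 393 desert regions (3.21%) had their midpoint in one. The peak density in pseudogenes was 4.00, 3.96 and 3.73 times that of the remaining desert in transgenic replicates 1, 2 and 3 and 3.85, 4.04 and 3.07 times in wild-type replicates 1, 2 and 3. In lncRNA genes, introns included, the same ratio was 0.947, 0.919 and 0.805 in transgenic and 0.821, 0.904 and 0.700 in wild-type lungs. Of the regions found in all 6 lists, 77 had their midpoint in a pseudogene (2.84%) and 177 in a lncRNA gene (6.52%). These ratios were added after the data were seen and are given with no test. Reads of a pseudogene and of its parent gene can be alike in sequence, and the sources used here do not state how multiply aligned reads were handled.

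Between transgenic and wild-type lungs, 5 measures of the deserts as a whole were compared, and their values overlapped between the groups. With 3 animals per group the exact permutation test cannot go below p = 0.1, so it could not call a difference here, and a missing call says nothing about whether the groups are alike. Deserts held 9721, 10030 and 7661 peaks in transgenic replicates 1, 2 and 3 and 6151, 9304 and 4085 peaks in wild-type replicates 1, 2 and 3. Peak density in deserts was 23.1 ± 3.26 per Mb in transgenic and 16.5 ± 6.66 per Mb in wild-type lungs (SD, n = 3 each, two-sided exact permutation p = 0.2, adjusted p = 0.3 over 5 measures). With every list cut to its 30640 highest-scoring peaks the densities were 10.6, 11.5 and 10.9 per Mb in transgenic and 10.2, 10.6 and 10.3 per Mb in wild-type lungs, a difference of 0.620 in place of 6.64. The groups then did not overlap (exact permutation p = 0.1, the smallest the design allows). As a share of autosomal peaks, deserts held 8.47%, 9.06% and 10.3% in transgenic and 10.8%, 8.79% and 14.4% in wild-type lungs, a difference of -2.08 percentage points (exact permutation p = 0.3, adjusted p = 0.3). The groups overlapped, and the highest share belonged to the shortest list. With every list cut to 30640 peaks the shares were 14.7%, 16.0% and 15.0% in transgenic and 14.1%, 14.8% and 14.4% in wild-type lungs, and the difference turned to 0.838 points (exact permutation p = 0.2).

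The density ratio of deserts to the rest was 0.520 ± 0.0565 in transgenic and 0.656 ± 0.185 in wild-type lungs (SD, n = 3 each, exact permutation p = 0.3, adjusted p = 0.3). Its difference of -0.136 turned to 0.0609 with the same number of peaks per list. The median width of desert peaks was 472 ± 39.0 bp in transgenic and 364 ± 144 bp in wild-type lungs (SD, n = 3 each, exact permutation p = 0.3, adjusted p = 0.3). The median score percentile was 68.8 ± 1.53 and 63.3 ± 6.82 (SD, n = 3 each, exact permutation p = 0.2, adjusted p = 0.3) in the same groups, and percentiles of lists of different lengths show no change in capture. With every list cut to 30640 peaks the difference of 5.53 percentile points became 0.303 (exact permutation p = 1).

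These differences rested on single libraries. Without wild-type replicate 2 the groups separated in all 5 measures (exact permutation p = 0.1 each), with differences of -3.35 points in share, 10.2 peaks per Mb, -0.218 in density ratio, 161 bp in width and 8.22 percentile points. Without wild-type replicate 3 they were -0.553 points, 3.56 peaks per Mb, -0.0350, 26.3 bp and 1.70 percentile points (exact permutation p = 0.4 to 0.6).

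Desert regions with peaks in the 3 transgenic lists but in none of the wild-type lists numbered 191 (1.55%), against 1.84% of all autosomal regions. The opposite pattern was found at 3 desert regions, against 0.0152% of all autosomal regions. The 191 became 618 without transgenic replicate 3 and 1470 without wild-type replicate 2, and 81 with the same number of peaks per list. The 3 became 34 without wild-type replicate 3, 5 to 9 without any 1 of the other libraries and 17 with the same number of peaks per list. Leaving out a library drops a condition, so these counts cannot fall. The strongest transgenic-only region by its lowest score was chr9:100185528-100186012 in the lncRNA gene 4930540E01Rik, between Sox14, a transcription factor gene, and Il20rb, with scores of 159, 177 and 164 in transgenic replicates 1, 2 and 3. It was followed by chr3:149404488-149405047 in the lncRNA gene Gm30382, beyond the latrophilin gene Adgrl2, and chr12:45399872-45400148 between Stxbp6 and Nova1. Lower in this order came chr12:59489592-59489995 in the lncRNA gene Gm51997, chr1:108378791-108379542 in the pseudogene Gm5702, and chr1:7563593-7564117 between Pcmtd1 and Sntg1, whose lowest scores were 126, 113 and 102. The wild-type-only regions were chr14:90911188-90911351 and, between the ephrin receptor gene Epha7 and the kinase gene Map3k7 on chromosome 4, chr4:31354176-31354341 and chr4:30079730-30080183. Their scores in wild-type replicates 1, 2 and 3 were 147, 126 and 229, then 106, 114 and 212, and 67.0, 94.6 and 78.1.

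In the authors' deposited table, the desert rows were nearly all higher in transgenic lungs. Outside deserts it held 208 higher and 84 lower autosomal rows. Its 356 autosomal rows are 0.405% of the autosomal regions tested. Of the 64 desert rows 61 were higher and 3 lower in the transgenic group, at FDR values between 1.04e-05 and 0.0995. All of them equalled merged regions that were found in at least 3 lists, of which 8416 lay in deserts. Higher rows of the authors' deposited table thus made up 0.725% of the desert regions tested, against 0.306% of all autosomal regions tested and 0.261% outside deserts. Lower rows made up 0.0356% in deserts, against 0.0989% of all autosomal regions tested. Put the other way, deserts held 9.57% of the autosomal regions tested, 22.7% of the 269 autosomal higher rows and 3.45% of the 87 lower rows of the authors' deposited table. With a limit of 100000 bp the desert shares were 17.9% of tested regions, 37.2% of higher rows and 12.6% of lower rows, and with 500000 bp they were 4.56%, 9.29% and 1.15%. Regions are not animals, and no test of these shares was made.

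Region width and recurrence moved with the calls. Within each width class from 300 bp up, a larger share of desert than of other tested regions was called higher in the authors' deposited table. The shares were 0.136% in deserts and 0.0598% elsewhere at 300 to 599 bp, 0.319% and 0.165% at 600 to 999 bp, and 2.85% and 1.51% at 1000 to 1499 bp. They were 10.7% (14 of 131 regions) and 4.54% (44 of 970) at 1500 to 1999 bp, and 22.5% (9 of 40) and 2.93% (13 of 444) at 2000 bp or more. Below 300 bp, 0 of 54 desert regions and 1 of 490 others were called. Among regions with a peak in all 6 lists, 47 of 2732 in deserts (1.72%) and 150 of 14010 elsewhere (1.07%) were higher in the authors' deposited table.

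**Figure D5:**
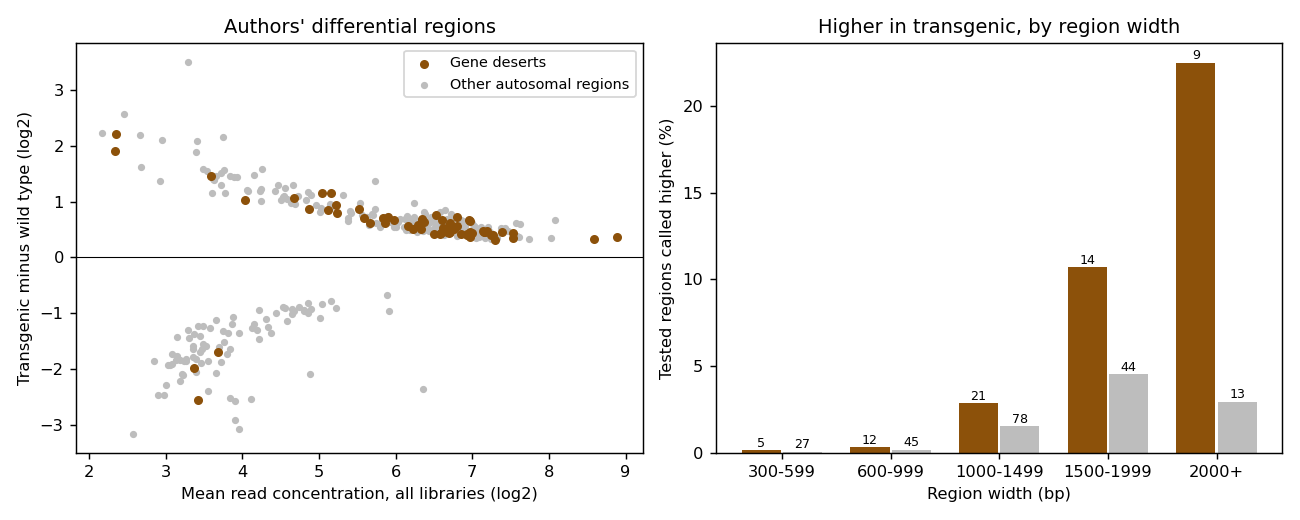
Left: log2 fold (transgenic minus wild type) against mean log2 read concentration for the 356 autosomal rows of the authors' deposited table, with gene deserts in brown and other regions in grey. Right: percentage of tested regions (peak in 3 or more lists) called higher in transgenic lungs, by region width in bp. The number called stands above each bar. In the widest class 9 of 40 desert regions (22.5%) and 13 of 444 others (2.93%) were called.

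The higher desert regions were wide, high in read concentration and changed by little. Their median width was 1380 bp, and 54 of 61 changed by less than 2-fold, with a median log2 fold of 0.56 (1.47-fold) in the authors' deposited table. The median concentration was 6.85 in transgenic and 6.34 in wild-type lungs (log2, the authors' deposited table). For the 208 higher rows outside deserts the authors' deposited table gave a median log2 fold of 0.63 and median concentrations of 6.53 in transgenic and 5.93 in wild-type lungs, and their median width was 1180.5 bp. All 61 had a peak in the 3 transgenic lists, and 47 had one in all 6 lists. None of the 61 overlapped a CpG island, whereas 13 of the 208 others did, and the median distance to the nearest island in the authors' annotation was 551948 bp in deserts and 111752 bp outside them. Desert regions were chosen by distance from genes, and island distances of all tested desert regions are not given. The contrast therefore cannot be read as a trait of the called regions. The nearest protein-coding gene was 252752 to 1769727 bp away, and 5 of the 61 touched a RefSeq entry not annotated as protein-coding. These entries were the lncRNA genes B230209E15Rik, 6530403H02Rik and Gm27166 and the immunoglobulin loci Igh and Igk.

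Peak scores did not separate the groups at most of these 61 regions. Transgenic replicate 1 had the highest score at 60 of them, and wild-type replicate 3 had the lowest score or no peak at all 61, as their list lengths order them. Wild-type replicate 2 scored above transgenic replicate 3 at 51, and all transgenic scores were above all wild-type scores at 10. Whether library differences in capture or depth take part in these folds was not tested, since the authors' deposited table gives concentrations per group and not per library.

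Among the 61 higher desert regions, the 3 largest folds were found where wild-type lists had few or no peaks. The first was chr6:93384921-93385223, between Adamts9, the gene of an ADAMTS-family metalloprotease, and the scaffold gene Magi1. It had scores of 186, 139 and 75.0 in transgenic lungs and no peak in wild-type lungs. The authors' deposited table lists it with a fold of 2.22 on the log2 scale (FDR 0.0451), at concentrations of 3.07 in transgenic and 0.85 in wild-type lungs. A wider region 7 kb away in the same desert, chr6:93375977-93377798, had peaks in all 6 lists and, in the authors' deposited table, a log2 fold of 0.64 (FDR 0.0116). The second largest higher fold, at chr18:83593722-83594167 toward the zinc-finger homeobox gene Tshz1, was 1.91 (log2, FDR 0.0770) in the authors' deposited table, with scores of 128, 158 and 51.8 in transgenic lungs and no peak in wild-type lungs. The third, chr4:21312367-21312699 between Nkain3 and the transcription factor gene Prdm13, was listed at 1.47 (log2 fold, FDR 0.0399) in the authors' deposited table, with scores of 415, 329 and 175 in transgenic lungs and 71.6 in wild-type replicate 2 alone.

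The next 9 by size had log2 folds between 0.80 and 1.16 in the authors' deposited table. At chr3:7082782-7083543, toward the protein kinase inhibitor gene Pkia, the log2 fold was 1.16 (FDR 0.0102) in the authors' deposited table. The scores there were 734, 671 and 361 in transgenic and 116, 335 and 63.0 in wild-type lungs. These did not overlap between the groups, though scores are unscaled between libraries. The region chr12:114596466-114597317 lies in the immunoglobulin heavy chain locus Igh and was listed at 1.15 (log2 fold, FDR 0.0163) in the authors' deposited table. Others were chr18:79748880-79749471 beyond Setbp1, chr16:51212034-51212464 toward the ubiquitin ligase gene Cblb, chr14:37628651-37629402 between Ghitm and the neuregulin gene Nrg3, and chr4:7836056-7836911 between the thymocyte transcription factor gene Tox and Car8. The last 3 were chr3:10789783-10790672 and chr3:11590381-11591166, both in the desert between Snx16 and Ralyl, and chr2:159656072-159656933 between Dhx35 and Gm826.

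The smallest FDR values belonged to regions with modest folds, and these were chosen after their values were seen. At chr19:49340239-49341673, between the sorting receptor genes Sorcs3 and Sorcs1, the scores were 1416, 1064 and 609 in transgenic and 246, 615 and 84.4 in wild-type lungs. The authors' deposited table gave it a log2 fold of 0.73 (FDR 1.04e-05), at concentrations of 7.13 in transgenic and 6.40 in wild-type lungs. The widest, chr8:52303478-52308930 between Tenm3 and Aga, was listed at 0.38 (log2 fold) with the same FDR in the authors' deposited table. It is 5453 bp wide and had no peak in wild-type replicate 3. The widest region found in all lists, chr7:72650149-72654965 between Mctp2 and Rgma, was listed at 0.34 (log2 fold, FDR 6.71e-05) in the authors' deposited table.

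The higher regions were spread over 54 deserts on 18 of the 19 autosomes, chromosome 10 having none. The 7 deserts with 2 higher regions each lay between Snx16 and Ralyl, between Ripk2 and the matrix metalloproteinase gene Mmp16, between Adamts9 and Magi1, between Tenm3 and Aga, between Nrg3 and Sh2d4b, between Trim52 and the neuronal adhesion gene Slitrk1, and between Setbp1 and Gm36718. Of the 61, 16 lay in deserts flanked by a neuronal adhesion or synaptic gene, 2 beside a developmental transcription factor gene and 5 beside a gene of a secreted ligand, whose deserts hold 32.8%, 8.53% and 1.54% of the desert sequence. Of the 5, chr14:37628651-37629402, chr14:40096840-40098368 and chr14:40546428-40548407 all lay beside Nrg3. The shares of tested desert regions in these deserts are not given.

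The 3 lower desert regions were short and weakly captured. At chr14:90911188-90911351, in the longest desert between Pcdh20 and Pcdh9, no transgenic list had a peak and the wild-type scores were 147, 126 and 229. Its log2 fold was -2.56 (FDR 0.0335) in the authors' deposited table. At chr2:57629344-57629833, between the glycerol-3-phosphate dehydrogenase gene Gpd2 and Galnt5, the log2 fold was -1.98 (FDR 0.0188) in the authors' deposited table. Transgenic replicates 1 and 2 had scores of 56.9 and 64.3 there, and wild-type replicates 2 and 3 had 215 and 102. At chr3:8246219-8246730, between the interleukin gene Il7 and Stmn2, the log2 fold was -1.69 (FDR 0.0587) in the authors' deposited table, with a score of 101 in transgenic replicate 3 and 105, 74.1 and 77.9 in wild-type lungs.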

How the data were processed

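MBD-seq libraries of 3 transgenic and 3 wild-type lungs were grouped by sample title. Reads were aligned with Bowtie to mm10, and DiffBind and edgeR were used, as named in the submitters' processing notes without versions, and per the labels the assay was MBD-seq. Peaks carry the names MACS writes, 1 deposited list per library, and the peak score is the authors' own, unscaled between libraries. The authors' deposited table gives concentrations and folds on a log2 scale, with the authors' p-value and FDR. Their normalization was not stated. Positions are printed 1-based, so starts are 1 above those listed.

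Gene spans came from RefSeq (GRCm38.p6, the mm10 assembly, 20560 autosomal protein-coding genes). Of its autosomal entries 328, of which 105 are protein-coding, stand below position 3000000, before the first peak of any list (3001242), and were left out, as their positions cannot be those of the assembled chromosomes. Peaks that shared or touched at 1 bp were merged. A region or peak was a desert member when all of it lay 250000 bp or more from every protein-coding gene. Tested regions are taken to be those with a peak in 3 or more lists. The authors' deposited table lists called rows only, so the set they tested is assumed.

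Comparisons over libraries used exact permutation tests (two-sided), with Benjamini-Hochberg adjustment within 3 tests of deserts against the rest and 5 of transgenic against wild type. The labels call the animals biological replicates. Regions named were the 10 deserts with most shared regions, the 12 largest folds per direction, the 6 highest-scoring, 6 widest and up to 6 group-specific regions, the 5 longest and 5 sparsest deserts. Members, lists and tests were chosen with earlier results of these data known. The calculation of density, width and score rank was also run on simulated data, from which no value is given here. No genome sequence was used here, so assembly gaps inside deserts were not removed. Alternatives are given in the closing section. Python 3.11.15, pandas 2.3.3, numpy 2.4.6, scipy 1.17.1 and matplotlib 3.10.9 were used.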

Additional observations from a re-analysis of the deposited data

How the results depend on the processing

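The density ratio of deserts to the rest (0.575) stayed below 1 under every alternative run. It lost its call among peaks of at least the pooled median score (0.791), as did the width difference (43.2 bp). That single cut on unscaled scores kept unlike shares of the lists. Without any 1 library the ratio was 0.531 to 0.599, the width difference 48.0 to 60.4 bp and the score percentile difference 16.8 to 19.8, where 5 libraries allow no p below 0.0625. With every list cut to its 30640 highest scores the differences in desert share (0.838 percentage points) and density ratio (0.0609) turned positive. The cause was not tested. Without any 1 library the differences between transgenic and wild-type lungs kept their sign and were -3.35 to -0.553 points in share, 3.56 to 10.2 peaks per Mb, -0.218 to -0.0350 in ratio, 26.3 to 161 bp in width and 1.70 to 8.22 in percentile, at exact p = 0.1 to 0.7, with both extremes given by leaving out a wild-type animal (replicate 2 or 3).

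The share of desert regions in all lists (22.2%) was 18.5% and 26.4% at distances of 100000 and 500000 bp, 25.8% with all RefSeq genes, 27.2% with the same number of peaks per list, 7.62% at the median score, and 22.9% to 39.6% without any 1 library. The counts of transgenic-only and wild-type-only regions (191 and 3) were 396 and 5 at 100000 bp, 86 transgenic-only at 500000 bp, 17 and 1 with all RefSeq genes, 81 and 17 with the same number of peaks per list, and 212 to 1470 and 5 to 34 without any 1 library. Higher and lower rows of the authors' deposited table (61 and 3) were 100 and 11 at 100000 bp, 25 and 1 at 500000 bp, and 6 and 0 with all RefSeq genes. Higher rows were 30 at an FDR of 0.05 or less and 7 at an absolute log2 fold of 1 or more. A smaller distance or an added gene set changes the desert sequence itself.

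The same replicate numbers were not stated to pair animals. Deviations of peak counts over 122 deserts correlated at -0.03, 0.18 and 0.27 for the pairs of numbers 1, 2 and 3. Pairs of unlike numbers ranged from -0.39 (transgenic replicate 3 with wild-type replicate 2) to 0.37 (transgenic replicate 1 with wild-type replicate 2). With a replicate block the differences were -2.08 points in share, 6.64 peaks per Mb, -0.136 in ratio, 108 bp in width and 5.53 in percentile, at exact p = 0.25 to 0.5, where 3 pairs allow no p below 0.25. With RefSeq entries below position 3000000 kept the ratio was 0.549, and with antigen receptor segments counted as genes 0.573, both added after the data were seen. Read depth per library was unknown, which limits every comparison of levels between animals.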

Other observations

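Some of the 585 deserts are antigen receptor loci, because their variable, diversity and joining segments are not annotated as protein-coding. The desert between Adam6a and Zfp386 on chromosome 12 holds 145 such segments of the immunoglobulin heavy chain locus, and that between Gm36448 and Dad1 on chromosome 14 holds 118 segments of the T cell receptor. Peaks in the desert on chromosome 12 numbered 60, 59 and 46 in transgenic replicates 1, 2 and 3 and 33, 59 and 16 in wild-type replicates 1, 2 and 3. On chromosome 14 they numbered 45, 46 and 34 in transgenic and 29, 44 and 13 in wild-type lungs. Over all antigen receptor segments in deserts, the segments themselves held peak midpoints at 0 to 1.18 times the density of the remaining desert, in at most 5 peaks per library. With the segments counted as genes, 59 higher and 3 lower rows of the authors' deposited table were left in deserts.

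The fewest regions shared by all lists per Mb, among deserts of 1 Mb or more, were found between Ttll7 and Adgrl2 on chromosome 3, where 1 of 58 regions had a peak in all 6 lists. That desert had 43.6 regions of any kind per Mb, against a median of 27.0, so a dense desert can hold almost no shared region. The most per Mb were found between Gm42163 and Cenpc1 on chromosome 5, with 13 of 32 regions in all lists (12.4 per Mb).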
